A study of Mus musculus with 6 samples.

Results

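The 35 skeletal muscle genes are transcripts of myogenic factors, of the sarcomere and of the machinery that couples nerve, membrane and calcium to contraction. They were taken by symbol from a list with no threshold on measured values, though the list was drawn up with earlier results of these data known. All 35 were among the 23420 genes of the counts. Levels were measured by RNA sequencing of the tissue that forms the anterior hard palate in C57BL/6 mouse embryos at E14.5. The 3 mutant libraries had the genotype Shox2Cre/-;Nkx2.5F/F, in which the second allele of the homeobox gene Shox2 is lost beside the Cre allele, and are titled KO. The 3 control libraries had the genotype Shox2Cre/+;Nkx2.5F/F and are titled WT, although they too carried the Shox2-Cre allele. Both groups were homozygous for a floxed Nkx2-5 gene, so both can lose Nkx2-5 in cells that express Cre from Shox2. How many embryos went into each library is not stated, so every p-value reflects variation among the libraries alone. The comparison asks what differs between these genotypes in the palate, and here what differs among muscle transcripts.

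Skeletal muscle forms when progenitors switch on a small family of DNA-binding myogenic factors, of which Myf5 and Myod1 act at commitment and Myog at terminal differentiation. The fibres then assemble sarcomeres, in which thick filaments of myosin pull on thin filaments of actin under the control of the troponin complex, and embryonic fibres use developmental isoforms that are later replaced. In the palate, muscle belongs mainly to the soft palate at the back, whereas the hard palate in front is mesenchyme, forming bone and covering epithelium. In whole tissue of this kind, fewer cells of a type and less RNA per cell cannot be told apart.

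The libraries differed in ways that bear on low genes such as these. Total counts were between 52668242 and 53331397 in the mutants and between 81950407 and 134813429 in the controls, so every control was deeper than every mutant. Shox2 was low in every mutant, at 5.3, 4.12 and 3.13 CPM in mutant replicates 1, 2 and 3, against 88.2, 68.2 and 81.7 CPM in control replicates 1, 2 and 3. CPM here means counts scaled to a common library size by edgeR's TMM method. All 8 markers of palatal mesenchyme, the labelled tissue, had counts in every library, a weak check at this depth. Xist, which is made from the inactive X chromosome of females, stood at 0.291, 0.333 and 0.261 CPM in the mutants, against 232, 843 and 692 CPM in the controls. The summed level of 4 Y-linked genes was 199, 244 and 208 CPM in the mutants, against 192, 36.2 and 87.5 CPM in the controls. Transcripts of both sex chromosomes were thus present in all 3 controls in unequal amounts, with control replicate 1 the highest and control replicate 2 the lowest in Y-linked level. Xist was near 0 in every mutant and high in every control, so by these levels sex makeup differed between the groups. Effects of sex makeup and of genotype cannot be told apart here.

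The muscle genes were low in all 6 libraries, and 14 of the 31 that could be tested were lower in the mutants (45.2%, against 21.7% of all tested genes). The 35 genes summed to 46.9, 37.9 and 44.3 CPM in mutant replicates 1, 2 and 3, against 170.0, 54.5 and 81.7 CPM in control replicates 1, 2 and 3. The mean was 43.0 ± 4.62 CPM in the mutants and 102 ± 60.2 CPM in the controls (SD, n = 3 each). The mutants lay close together, while the controls were spread over a wide range, and control replicate 2 was nearest to the mutants. Myom1, an M-band protein of the thick filament, made up 33.5% of the member counts in that library. Over the 34 other members the sums were 41.9, 32.3 and 38.8 CPM in the mutants, against 161.0, 36.2 and 67.5 CPM in the controls, and the groups overlapped. This sum without Myom1 was taken after the values were seen.

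**Figure D1:**
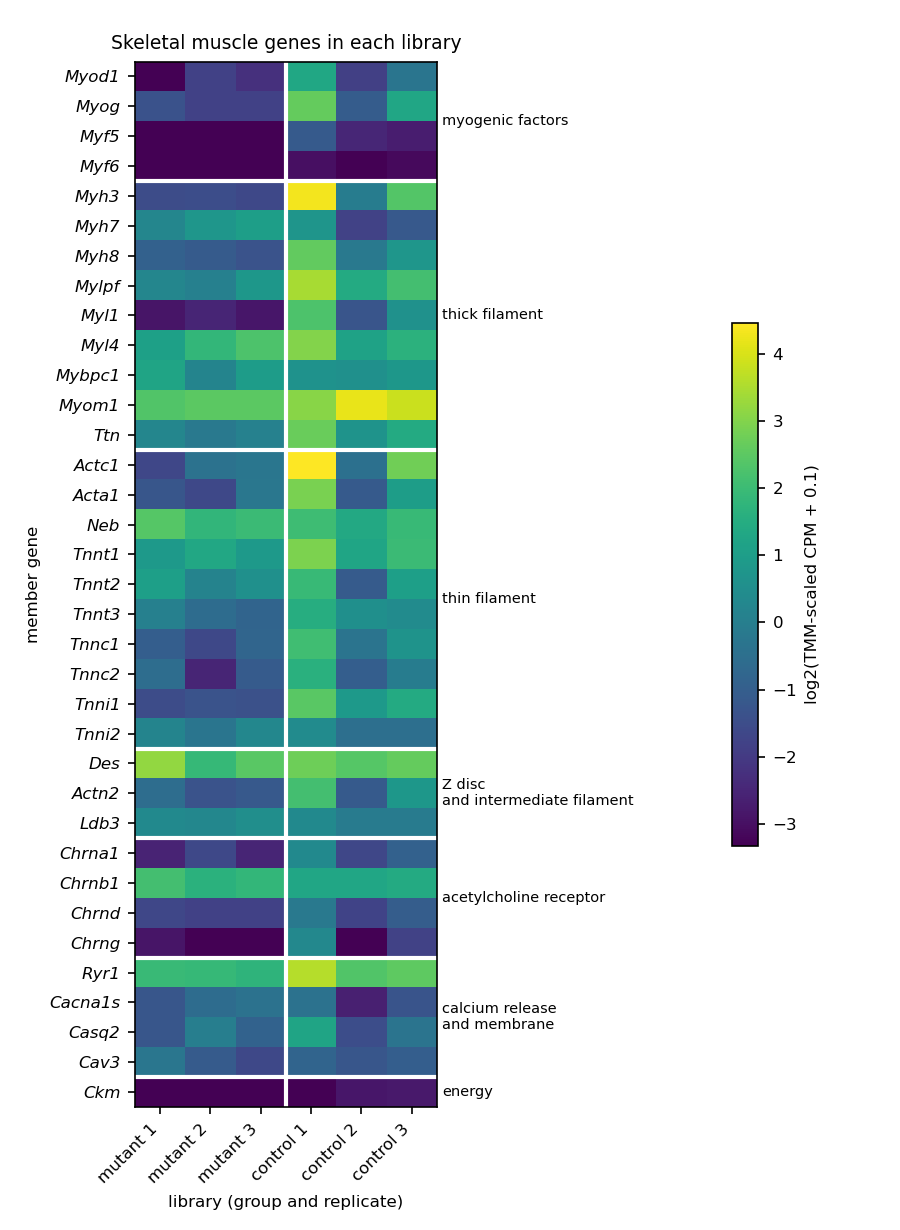
Level of each of the 35 skeletal muscle genes (rows, grouped by role) in each library (columns, mutants left of controls), as log2 of TMM-scaled CPM with 0.1 added. Control replicate 1 is the brightest column for most genes, with Myh3 at 19.8 CPM and Actc1 at 21.9 CPM, and control replicate 2 is often as dark as the mutants.

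Of the 35 genes, 31 passed the filter on low counts and were tested with edgeR. A gene was called at a Benjamini-Hochberg adjusted p under 0.05 over all 16604 genes tested. The fit called 14 of the 31 lower in the mutants (45.2%), where 21.7% of all tested genes were called lower. The other 17 did not pass, and none was called higher, where 24.1% of all tested genes were. At an unadjusted p under 0.05, 1 member (Chrnb1) was higher by edgeR. At the adjusted threshold DESeq2 called 1 member higher, against 26.4% of all tested genes, and limma-voom called 0, against 24.2%. The median log2 fold change of the 31 was -1.35, against 0.00 over all tested genes, with 22 members below 0 and 9 above it. All 3 mutants lay below all 3 controls for 11 of the 31 tested members (35.5%), against 29.2% of all tested genes, and above them for 1 (Chrnb1), against 29.7% of all tested genes. A gene could pass the filter on its control levels alone, and 4 tested members did not reach the cutoff in every mutant. These were Myod1, Myl1, Chrna1 and Tnnc2, of which the first 3 were called lower. In a fit that added the Y-linked level as a covariate, 19 of the 31 were called (61.3%), all of them lower, against 31.5% of all tested genes called in either direction, 2411 of which were lower and 2821 higher. This fit was added after the data were seen. The Y-linked level was 199, 244 and 208 CPM in the mutants, against 192, 36.2 and 87.5 CPM in the controls. The slope thus rests mostly on the 3 controls, in which most members follow the same order. Calls gained with this covariate, here and below, are therefore not separate support for a fall. With limma-voom in place of edgeR, 2 of the 31 were called lower, Tnni1 and Myom1 (6.45%), against 21.5% of all tested genes, and with DESeq2 18 were (58.1%), against 24.2%.

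**Figure D2:**
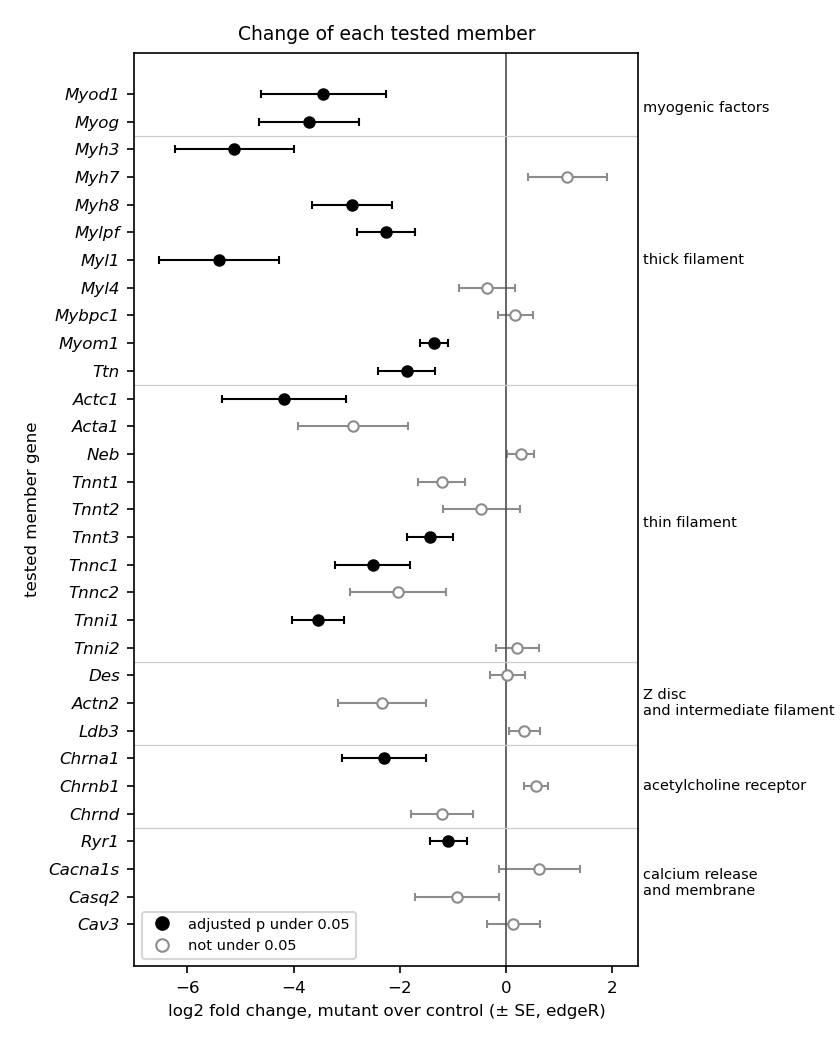
Log2 fold change, mutant over control, of the 31 tested members by role, with the standard error from edgeR (filled points: adjusted p under 0.05). The filled points all lie left of 0, between -5.41 for Myl1 and -1.08 for Ryr1, and no member of the Z disc group is filled.

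Both myogenic factors that could be tested fell, where 21.7% of all tested genes were called lower. Myog, the differentiation factor, had 0.291, 0.185 and 0.186 CPM in the mutants, against 6.02, 0.377 and 2.35 CPM in the controls (log2 fold change -3.71, SE 0.95, edgeR adjusted p = 0.0162). All mutants lay below all controls for Myog, although control replicate 2 was close to them. Myod1, a factor of the myogenic lineage on chromosome 7 (46376474 to 46379099, plus strand), had 0, 0.185 and 0.112 CPM in the mutants, against 2.39, 0.178 and 0.709 CPM in the controls. Its groups overlapped, and it changed by -3.44 on the log2 scale (SE 1.18, edgeR adjusted p = 0.0476). Myf5, which marks committed progenitors, had no counts in any mutant and 29, 8 and 7 counts in control replicates 1, 2 and 3, at least 7.6-fold lower by a floor of 3 counts over the mutants. Most of these counts came from control replicate 1, and without it the bound was 3.49-fold. Myf6, a factor of maturing fibres, had 0 counts over the mutants and 2, 0 and 2 counts in the controls, too few for a fold. Neither Myf5 nor Myf6 passed the filter. Such floors cover counting error only. Low counts were mostly even (63.6% to 99.7% of the values from 5 to 50 in a library), so counts are not independent, and the floors and counting intervals given here are too narrow.

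Promoters are shown for the member with the largest called fall and a RefSeq entry among the myogenic factors (Myog), the thick filament genes (Myl1) and the thin filament genes (Actc1), because myogenic factors bind the E-box, written CANNTG. Each is the RefSeq window from 250 bases before to 50 after the transcript start on GRCm38.p6, 5′ to 3′ on the strand of the gene. Capitals mark E-boxes. The windows are chr1:134289754-134290053 on the plus strand for Myog, chr1:66945007-66945306 on the minus strand for Myl1 and chr2:114052826-114053125 on the minus strand for Actc1.
Myog: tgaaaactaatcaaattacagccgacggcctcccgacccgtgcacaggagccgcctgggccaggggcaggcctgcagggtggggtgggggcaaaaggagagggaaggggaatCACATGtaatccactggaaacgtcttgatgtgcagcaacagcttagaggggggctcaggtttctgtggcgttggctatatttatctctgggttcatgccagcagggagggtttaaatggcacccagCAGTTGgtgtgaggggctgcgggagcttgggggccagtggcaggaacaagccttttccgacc
Myl1: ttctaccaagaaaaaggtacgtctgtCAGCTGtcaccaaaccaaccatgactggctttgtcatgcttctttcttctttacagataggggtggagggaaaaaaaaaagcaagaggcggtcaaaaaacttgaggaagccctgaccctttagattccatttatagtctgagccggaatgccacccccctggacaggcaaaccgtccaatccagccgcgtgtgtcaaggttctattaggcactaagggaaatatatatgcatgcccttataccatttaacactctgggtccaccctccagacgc
Actc1: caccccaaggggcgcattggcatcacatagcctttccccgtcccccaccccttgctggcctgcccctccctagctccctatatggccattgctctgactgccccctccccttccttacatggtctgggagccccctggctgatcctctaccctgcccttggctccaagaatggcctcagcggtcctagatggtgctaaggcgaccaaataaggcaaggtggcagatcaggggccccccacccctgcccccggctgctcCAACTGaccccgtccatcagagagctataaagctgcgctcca
The Myog window held CACATG in its upstream part and CAGTTG at 12 bases before the start. The Myl1 window held CAGCTG at 224 bases before the start, and the Actc1 window held CAACTG at 8 bases after it. RefSeq promoters were found for 29 of the 35 genes, and not for Myod1, Myf6, Tnnt3, Tnni2, Neb and Chrnd. An E-box was present in 25 of the 29 (86.2%), against 72.3% of 32851 promoters of this length. The E-box CAGCTG was present in 12 of the 29 (41.4%), against 16.3% of all promoters. It was in 4 of the 12 members called lower and in 8 of the 17 other members with a promoter. A MEF2 box was present in 3 of the 29 (10.3%), against 3.19% of all promoters. The percentages of members are per gene, while those of all promoters are per promoter. A gene with several promoters has more chances of a match, so the member percentages can be too high against that background. These comparisons therefore do not show that the motifs are more frequent in the members. Both strands were searched, CAGCTG is also a CANNTG match, and a match describes the letters only.

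Among thick filament genes, 6 of 9 fell (66.7%, against 21.7% of all tested genes) and 3 did not pass. Myl1, an essential light chain of fast fibres on chromosome 1 (66924295 to 66945404, minus strand), had 0.0363, 0.074 and 0.0372 CPM in the mutants, against 4.75, 0.317 and 1.44 CPM in the controls (log2 fold change -5.41, SE 1.13, edgeR adjusted p = 0.00711). The mutant values are 2, 4 and 2 counts, so the size of this fall rests on very few reads. Myh3, the embryonic myosin heavy chain on chromosome 11 (67078300 to 67102291, plus strand), had 0.254, 0.259 and 0.223 CPM in the mutants, against 19.8, 0.872 and 5.1 CPM in the controls (-5.12, SE 1.12, edgeR adjusted p = 0.00863). The mutants differed little from each other, while the highest control stood far above the lowest. Mylpf, the regulatory light chain of fast fibres, had 1.09, 0.943 and 1.64 CPM in the mutants, against 10.7, 2.63 and 4.31 CPM in the controls (-2.26, SE 0.54, edgeR adjusted p = 0.0123). Myom1, on chromosome 17 (71002633 to 71126856, plus strand), had 4.94, 5.55 and 5.53 CPM in the mutants, against 8.4, 18.2 and 14.1 CPM in the controls (-1.35, SE 0.27, edgeR adjusted p = 0.00649). It was the only one of the called genes whose highest control was replicate 2 and whose lowest was replicate 1. Myh8, the perinatal heavy chain, fell by 2.90 on the log2 scale (SE 0.76, edgeR adjusted p = 0.0173), and Ttn, the giant spring protein titin, fell by 1.87 (SE 0.53, edgeR adjusted p = 0.0245). For all 6 of these genes every mutant lay below every control.

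The other 3 thick filament genes did not pass. Myh7, the slow and cardiac heavy chain, had 1.09, 1.59 and 1.95 CPM in the mutants, against 1.56, 0.188 and 0.355 CPM in the controls (log2 fold change 1.16, SE 0.74, edgeR adjusted p = 0.238). Its call turned on control replicate 1, since without that library Myh7 was called higher in the mutants (2.48, edgeR adjusted p = 0.00756). With the Y-linked covariate its value was -0.03 (edgeR adjusted p = 0.966). Myh7 lies beside the near-identical Myh6 and overlaps an antisense RNA, so reads of these genes may not be separable. Myl4, an atrial and embryonic light chain, had a value of -0.36 (SE 0.53), and Mybpc1, the myosin-binding protein of slow fibres, 0.18 (SE 0.33).

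Thin filament genes were divided, with 4 of 10 lower (40.0%, against 21.7% of all tested genes) and 6 not passing. Tnni1, the slow inhibitory troponin on chromosome 1 (135779434 to 135810989, plus strand), had 0.254, 0.296 and 0.279 CPM in the mutants, against 5.41, 1.71 and 2.60 CPM in the controls (log2 fold change -3.54, SE 0.49, edgeR adjusted p = 0.00148). It had the smallest p of the 31 tested members, with a mean of 0.276 ± 0.0209 CPM in the mutants and 3.24 ± 1.93 CPM in the controls (SD, n = 3 each). Actc1, the alpha actin of heart and embryonic skeletal muscle on chromosome 2 (114047282 to 114053548, minus strand), had 0.218, 0.666 and 0.726 CPM in the mutants, against 21.9, 0.634 and 6.72 CPM in the controls (-4.18, SE 1.17, edgeR adjusted p = 0.0228). Control replicate 2 lay within the range of the mutants for Actc1, so the groups overlapped. Tnnc1, the calcium-binding troponin of slow and cardiac muscle, had 0.400, 0.222 and 0.484 CPM in the mutants, against 0.694 CPM in the lowest control and 4.14 CPM in the highest (-2.51, SE 0.70, edgeR adjusted p = 0.0219). Tnnt3, the tropomyosin-binding troponin of fast fibres, fell by 1.43 on the log2 scale (SE 0.44, edgeR adjusted p = 0.0331). For Tnni1, Tnnc1 and Tnnt3 the groups did not overlap.

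The 6 thin filament genes that did not pass had values on both sides of 0. Acta1, the adult skeletal alpha actin, stood at -2.88 on the log2 scale (SE 1.03, edgeR adjusted p = 0.0553), with 0.327, 0.222 and 0.745 CPM in the mutants, against 7.27, 0.357 and 1.92 CPM in the controls. Tnnt1, the slow tropomyosin-binding troponin, had a value of -1.21 (SE 0.44, edgeR adjusted p = 0.055), and Tnnc2, the fast calcium-binding troponin, -2.03 (SE 0.91). Tnnt2, the cardiac and embryonic form, had a value of -0.46 (SE 0.72), Neb, the thin filament ruler nebulin, 0.28 (SE 0.26), and Tnni2, the fast inhibitory troponin, 0.22 (SE 0.40). Acta1, Tnnt1 and Tnnc2 were called lower with the Y-linked covariate (-4.31, -2.04 and -3.02, edgeR adjusted p = 0.00612, 0.005 and 0.037) and by DESeq2 (adjusted p = 0.00375, 0.0169 and 0.0494). Acta1 and Tnnt1 were also called without control replicate 2, and Tnnc2 with the replicate number as a block.

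**Figure D3:**
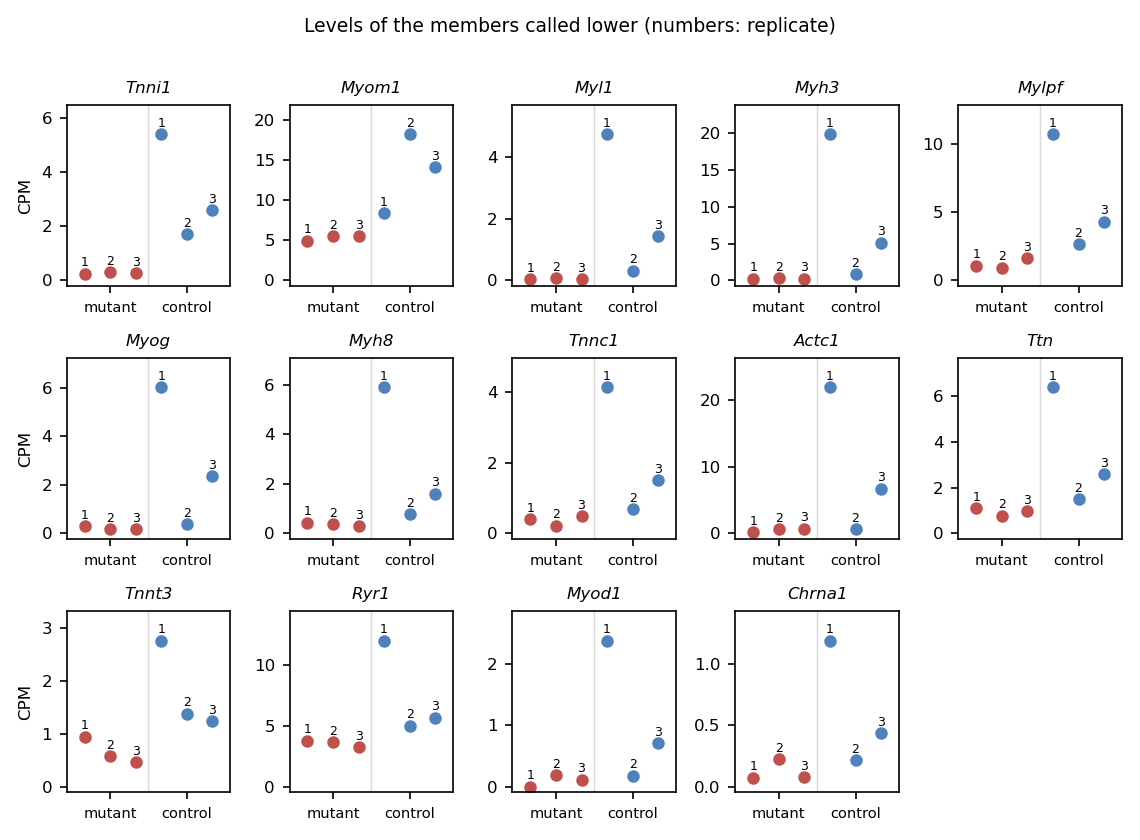
TMM-scaled CPM of the 14 members called lower, in order of p, with each library as a point (mutants left of controls, numbers give the replicate). For 11 genes every mutant is below every control, and for Actc1, Myod1 and Chrna1 control replicate 2 lies among or at the edge of the mutants.

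No gene of the Z disc and intermediate filament group passed in the fit of all 6 libraries without covariate. Des, the muscle intermediate filament protein that smooth muscle and pericytes also make, had 9.12, 3.57 and 5.45 CPM in the mutants, against 6.62, 5.16 and 5.99 CPM in the controls (log2 fold change 0.03, SE 0.33, edgeR adjusted p = 0.948). Actn2, which crosslinks actin at the Z disc, had 0.581, 0.296 and 0.354 CPM in the mutants, against 4.30, 0.357 and 1.63 CPM in the controls (-2.34, SE 0.83, edgeR adjusted p = 0.0537). Actn2 was called lower with the Y-linked covariate (-3.64, edgeR adjusted p = 0.00574), by DESeq2 (adjusted p = 0.00876), with the replicate block (0.049), without a filter on low counts (0.0497) and without control replicate 2 (0.0095). Ldb3, a Z disc adaptor, had a value of 0.35 (SE 0.29). Des was a leading member in the mutants, where it held 19.5% of the member counts in replicate 1, and its mutant and control means were close, at 6.05 ± 2.82 and 5.92 ± 0.73 CPM (SD, n = 3 each).

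Of the 4 subunits of the muscle acetylcholine receptor, which receives the signal of the motor nerve, 3 were tested. Of these 3, 1 fell (33.3%, against 21.7% of all tested genes). Chrna1, the subunit that binds acetylcholine, had 0.0727, 0.222 and 0.0745 CPM in the mutants, against 1.19, 0.218 and 0.438 CPM in the controls (log2 fold change -2.29, SE 0.79, edgeR adjusted p = 0.0486). Its groups overlapped. Chrnb1, the beta subunit, had 4.32, 3.01 and 3.46 CPM in the mutants, against 2.31, 2.31 and 2.63 CPM in the controls, and did not pass (0.57, SE 0.22, edgeR adjusted p = 0.066), although every mutant lay above every control. It was called higher by DESeq2 (adjusted p = 0.036) and by edgeR with scaling to library size only (adjusted p = 0.0493). Chrnd, the delta subunit, had a value of -1.20 (SE 0.58), and was called lower with the Y-linked covariate (-2.07, edgeR adjusted p = 0.0282). Chrng, the fetal gamma subunit, was not tested, with 2, 0 and 0 counts in the mutants, against 91, 0 and 25 counts in the controls. The ratio of mutant to control for Chrng was 0.0333, with a 95% counting interval of 0.00398 to 0.123. Without control replicate 1 the ratio was 0.115 (0.0132 to 0.46), and control replicate 2 had as few counts as mutant replicates 2 and 3.

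Among the genes of calcium release and the muscle membrane, 1 of 4 fell (25.0%), a share near the 21.7% of all tested genes. Ryr1, the calcium release channel of the sarcoplasmic reticulum, had 3.78, 3.64 and 3.24 CPM in the mutants, against 12.0, 5.01 and 5.66 CPM in the controls (log2 fold change -1.08, SE 0.34, edgeR adjusted p = 0.0359). The groups did not overlap. Casq2, a calcium store protein of heart and slow fibres, had 0.327, 0.906 and 0.447 CPM in the mutants, against 2.25, 0.258 and 0.694 CPM in the controls (-0.92, SE 0.79, edgeR adjusted p = 0.375). Casq2 was called lower with the Y-linked covariate (-2.28, edgeR adjusted p = 0.0205). Cacna1s, the voltage sensor that opens the release channel, had a value of 0.63 (SE 0.76), and Cav3, the caveolin of the muscle membrane, 0.14 (SE 0.50). Ckm, the muscle creatine kinase and the only energy gene among the 35, had 0 counts in the mutants, against 0, 4 and 6 counts in the controls, and was not tested.

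Within the sets of isoforms, the shares of the 2 genotypes did not overlap for troponin I and for 2 of the 3 myosin heavy chains. Tnni2 held 80.6%, 70.9% and 80.0% of the Tnni1 and Tnni2 counts in mutant replicates 1, 2 and 3, against 18.8%, 26.7% and 19.0% in control replicates 1, 2 and 3. The lowest 95% Wilson bound among the mutants was 57.9% and the highest among the controls was 32.7%. The Tnni2 level itself did not pass, at 0.964 ± 0.212 CPM in the mutants and 0.828 ± 0.365 CPM in the controls (SD, n = 3 each), while Tnni1 fell. Myh3 held 14.3%, 11.7% and 9.02% of the counts of Myh3, Myh7 and Myh8 in the mutants, against 72.7%, 47.1% and 72.1% in the controls. Myh7 held 61.2%, 71.7% and 78.9% in the mutants, against 5.71%, 10.2% and 5.02% in the controls. These shares are parts of 1 total, so a fall of Myh3 by itself raises the Myh7 share, and the level of Myh7 did not pass. Reads of Myh7 may not be separable from those of Myh6, which was called higher in the mutants (log2 fold change 2.63, edgeR adjusted p = 0.000855). The mutant shares rest on 98 to 133 counts for the heavy chains and on 55 to 75 for troponin I. The groups overlapped for Myh8, for troponin C and for troponin T, with Tnnt3 at 19.1% to 35.6% of the pair with Tnnt1 in the mutants and 24.6% to 37.6% in the controls. With 3 libraries against 3, an exact two-sided permutation test of a share cannot go below p = 0.1, so the shares are given without a test.

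**Figure D4:**
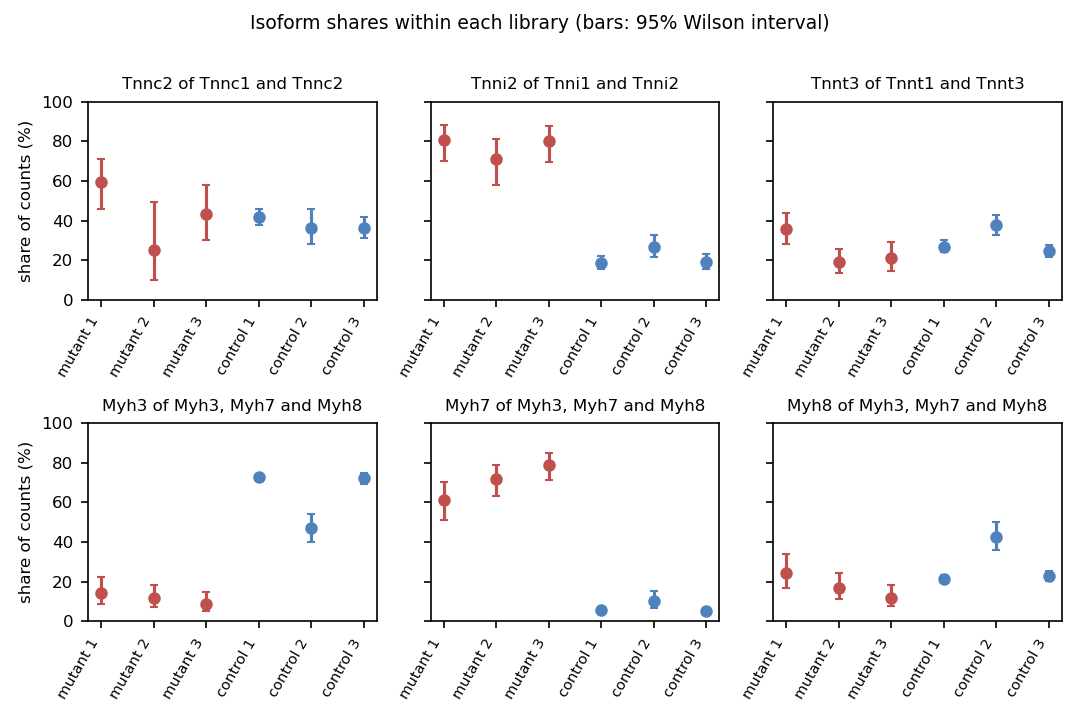
Share of counts (%) that 1 isoform takes of its pair or set in each library, with 95% Wilson intervals that cover counting error only (mutants left of controls). The Tnni2 share is at or above 70.9% in every mutant and at or below 26.7% in every control, and the Myh7 share is at or above 61.2% in every mutant and at or below 10.2% in every control. Myh7 reads may not be separable from those of Myh6, and the heavy chain shares are parts of 1 total.

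Per kilobase of exon, on which genes can be compared, the order of the members also differed. In the controls the highest mean levels were 7.19 CPM per kb for Mylpf, 6.62 for Actc1, 4.21 for Tnnt1 and 3.69 for Myl4. In the mutants the highest were 2.87 CPM per kb for Myl4, 2.0 for Des, 1.81 for Tnnt1 and 1.67 for Chrnb1. The order was not that of every control. Actc1 stood at 14.9 CPM per kb in control replicate 1, the highest of the 35, and at 0.43 in control replicate 2, at rank 12, where Myom1 led at 3.22. Mylpf stood at 1.49 CPM per kb in the mutants, at rank 5, and Actc1 at 0.364, at rank 14. Neighbours in these orders often did not differ beyond the spread of the libraries, as for Tnnt1 and Myl4 in the controls, with SDs of 2.68 and 3.16 CPM around means of 4.54 and 4.43 CPM before scaling to length.

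The spread among the controls was shared by most members. Of the 33 genes with at least 20 counts over the libraries, control replicate 1 was the highest control for 30 and control replicate 2 the lowest for 29. The full order, replicate 1 above 3 above 2, held for 27, and it is the order of the Y-linked level in the same libraries. Level in control replicate 1 over that in control replicate 2 ran from 0.46 to 34.6 among the 14 genes called lower, with a median of 5.71, and from 1.0 to 20.4 among the 17 that did not pass, with a median of 3.74. For 11 of the 14 called genes all mutants lay below control replicate 2, but the 14 were called on the same difference. Over the tested members, every mutant lay below every control for 11 of 31 (35.5%), against 29.2% of all tested genes. Without control replicate 1, 10 of 31 members were called lower (32.3%), against 21.5% of all tested genes. In that fit 1 member (Myh7) was called higher, where 23% of all tested genes were. Without replicate 1 of both groups, a choice made after the data were seen, 10 of 31 were lower (32.3%), against 26.8% of all tested genes. Myh7 was again higher, where 27.3% of all tested genes were.

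Called in each of the 6 fits that left out 1 library were Myh3, Myl1, Myom1 and Tnni1, that is 4 of the 14. Myod1 and Chrna1 lost the call without any 1 of the mutants and without control replicate 1 or 3. Actc1 lost it without any 1 of the mutants or control replicate 1, and Ttn, Tnnc1 and Ryr1 without any 1 of the mutants. Tnnt3 lost it without mutant replicate 2 or 3 or control replicate 1, Myog and Myh8 without mutant replicate 2 or 3, and Mylpf without mutant replicate 2. The share of tested members called lower was 12.5% (4) without mutant replicate 2, against 15.4% of all tested genes, and 15.6% (5) without mutant replicate 3, against 17.2%. It was 25.0% (8) without mutant replicate 1, against 21.6% of all tested genes. In the 2 fits without mutant replicate 2 or 3 the members' share was thus below that of all genes. Leaving out controls gave 54.8% (17) without replicate 2, against 16.1%, and 38.7% (12) without replicate 3, against 16.8%. The size of most falls also turned on 1 library. Without control replicate 1 the fold of 10 of the 14 called genes moved by over 1.5 times, with log2 values of -3.61 for Myh3, -4.14 for Myl1, -2.79 for Actc1, -2.63 for Myog, -2.18 for Myod1, -1.72 for Myh8, -1.59 for Tnnc1, -1.51 for Mylpf, -1.42 for Chrna1 and -1.12 for Ttn. Without mutant replicate 2, Myod1 stood at -4.26 and Chrna1 at -3.03. Myom1 was the only called member to lose its call with the Y-linked covariate (-0.67, edgeR adjusted p = 0.0546).

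Other muscle genes moved in both directions. Of 87 genes of the wider muscle programme, 68 were tested, and 17 were lower in the mutants (25.0%, against 21.7% of all tested genes) and 9 higher (13.2%, against 24.1%), with a median log2 fold change of -0.32. With the Y-linked covariate 10 were lower (14.7%) and 6 higher (8.82%), where 2411 and 2821 of the 16604 tested genes were. The share of these genes called lower was thus near that of all genes in both fits. Among 15 progenitor and fusion genes, 5 fell and 3 rose. Rbm24, an RNA-binding splicing regulator of muscle, had 21.1, 29.6 and 26.9 CPM in the mutants, against 5.18, 5.36 and 7.48 CPM in the controls (log2 fold change 2.10, SE 0.20, edgeR adjusted p = 0.000407). Pax3, a factor of muscle progenitors and neural crest, rose by 1.16 (SE 0.15), and Cdh15, the cadherin of myoblasts and satellite cells, fell by 2.2 (SE 0.28). Among 22 other sarcomere genes 6 fell (27.3%, near the 21.7% of all tested genes) and 16 did not pass. Tpm1, a tropomyosin that non-muscle cells also make, had 568, 566 and 628 CPM in the mutants, against 796, 1150 and 969 CPM in the controls (-0.72, SE 0.14), far above the 35 genes in level. Myom2, an M-band protein, fell by 3.82 (SE 0.80), and Myot, the Z disc protein myotilin, had no counts in the mutants, at least 13.3-fold lower. Control replicate 1 was the lowest control for Myom2, with 1.05, 3.48 and 1.77 CPM in control replicates 1, 2 and 3. Adjusted p from edgeR for Pax3, Cdh15, Tpm1, Myom2 and Myot lay between 0.00102 and 0.00757.

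The remaining lists held calls in both directions. Of 12 other excitation and calcium genes 3 fell (25.0%, near the 21.7% of all tested genes) and 1 rose (8.33%, against 24.1%). Hrc, a calcium-binding protein of the reticulum, had 2.94, 3.87 and 5.51 CPM in the mutants, against 12.2, 57.7 and 44.9 CPM in the controls (log2 fold change -3.22, SE 0.56, edgeR adjusted p = 0.00352). Atp2a2, the widely expressed calcium pump, rose by 0.38 (SE 0.07), and Srl, the reticulum protein sarcalumenin, fell by 0.58 (SE 0.13). Of 12 genes of the synapse and the dystrophin complex 3 rose (25.0%, near the 24.1% of all tested genes) and 9 did not pass. Musk, the receptor kinase that clusters acetylcholine receptors, had 2.25, 3.92 and 2.87 CPM in the mutants, against 0.433, 0.119 and 0.377 CPM in the controls (3.28, SE 0.51, edgeR adjusted p = 0.00212). Dmd, the dystrophin gene, rose by 0.51 (SE 0.13) and Utrn, its relative utrophin, by 0.32 (SE 0.10). Of 7 metabolic genes 3 fell (42.9%, against 21.7% of all tested genes) and 2 rose (28.6%, against 24.1%). Eno3, the muscle enolase, fell by 1.64 (SE 0.26) and Fabp3, a fatty acid carrier of heart and muscle, by 3.17 (SE 0.62), while Mb, the oxygen store myoglobin, rose by 2.32 (SE 0.53). The controls stood at 28.5, 62.2 and 48.6 CPM for Eno3 and at 4.96, 23.2 and 19.2 CPM for Fabp3. For Hrc, Eno3 and Fabp3 control replicate 1 was thus the lowest control, unlike for most of the 35 genes. Of 81 wider muscle genes with at least 20 counts, it was the lowest control for 29 and the highest for 46. Adjusted p from edgeR for Atp2a2, Srl, Dmd, Utrn, Eno3, Fabp3 and Mb lay between 0.0024 and 0.03.

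Markers of other tissues also moved, and their part in these results was not tested. Of all tested genes, 21.7% were called lower and 24.1% higher. Heart markers summed to 8.72, 7.82 and 6.11 CPM in the mutants, against 1.46, 2.13 and 1.83 CPM in the controls, with 3 of 3 tested higher (Myh6, Tnni3 and Myl7, which carry the sum). The other 7 were too low to test, of which Gata4 and Bmp10 had no counts in any library. Nkx2-5 had 0 counts in the mutants, against 8, 0 and 4 counts in the controls, Myl2 0 counts, against 0, 4 and 9, and Tbx20 3 counts in all, against 14. Smooth muscle markers summed to 313, 205 and 197 CPM in the mutants, against 129, 236 and 207 CPM in the controls, and the groups overlapped. Osteoblast markers summed to 247, 390 and 467 CPM in the mutants, against 864, 3320 and 2750 CPM in the controls, with 7 of 7 tested lower. Control replicate 1 was thus the lowest control for osteoblast markers and the highest for the muscle genes. Epithelial markers summed to 5230, 5040 and 5690 CPM in the mutants, against 1590, 946 and 1590 CPM in the controls, with 8 of 8 higher. The markers of palatal mesenchyme, the labelled tissue, summed to 7200, 6100 and 5770 CPM in the mutants, against 4050, 8650 and 7270 CPM in the controls. Of these 8, 4 were lower (Msx1, Twist1, Pdgfra and the targeted Shox2) and 0 higher. Tendon markers summed to 1590, 934 and 949 CPM in the mutants, against 763, 737 and 807 CPM in the controls, with 1 of 6 lower (Tnmd) and 2 higher (Fmod and Tnc). Tnc, which many cell types make, gave 1490, 825 and 834 CPM of the mutant sums, against 669, 623 and 695 CPM of the control sums, and 4 of the 6 had a log2 fold change below 0. The 7 markers of skeletal muscle are all among the 35 genes, so their values repeat those above and are no separate check. They summed to between 2.33 and 3.22 CPM in the mutants and between 5.17 and 30.4 CPM in the controls, with 5 of the 6 tested lower.

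**Figure D5:**
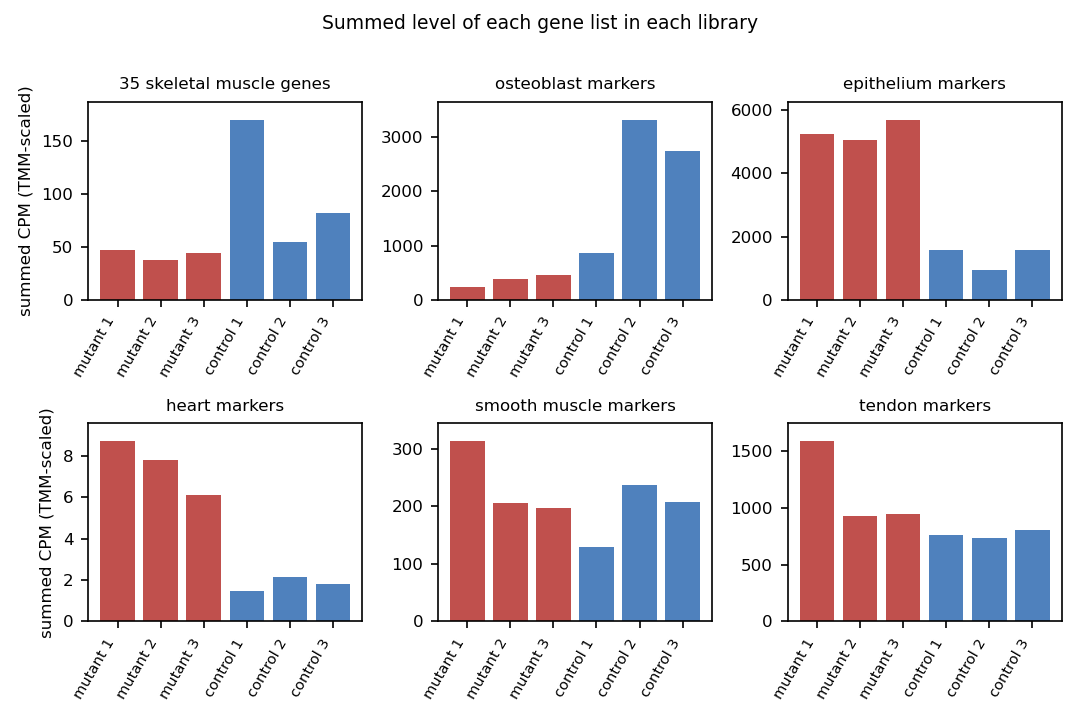
Summed TMM-scaled CPM of the 35 skeletal muscle genes and of 5 marker lists in each library (bars, mutants left of controls, each panel with its own scale from 0). The muscle genes are highest in control replicate 1 at 170.0 CPM, the library in which the osteoblast markers are lowest among the controls at 864 CPM.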

How the data were processed

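RNA sequencing counts of 3 mutant and 3 control libraries of E14.5 palate were used, with groups and replicate numbers from the titles and genotype labels. The deposited values are raw read counts per gene symbol. HISAT2, StringTie and the builds mm9 and mm10 are named per the submitters' processing notes. No source used here gives the counter, strand setting or annotation, and exons of 9 members overlap a gene on the opposite strand (Cacna1s, Ckm, Des, Mybpc1, Myh7, Myl4, Ryr1, Tnnc2 and Ttn). Even values made up 99.7% of the deposited counts from 5 to 50 in mutant replicate 1, and 63.6% to 73.0% in the other libraries. Counts were analysed with edgeR 4.0.16 in R 4.3.3: filterByExpr by group (at least 10 counts, about 0.1478 CPM), TMM scaling and the quasi-likelihood F test, without covariate. The biological coefficient of variation was 19.8%. Standard errors were derived from the log2 fold change and F, as its size over the root of F. DESeq2 1.42.0, limma-voom (limma 3.58.1), other scalings and filters, a replicate block and left-out libraries were alternatives, and the Y-linked covariate (log2 of the summed Kdm5d, Eif2s3y, Uty and Ddx3y CPM) and the fit without replicate 1 of both groups were added after the data were seen. The steps were tested on simulated data. Positions and exon lengths are from GENCODE M21 on GRCm38, and promoters from RefSeq. The members and lists were chosen with earlier results of these data known. Values in every library are given, within each role, for the called members with the smallest p (up to 4) and for those of highest level to make up at least 2. Up to 3 called genes by p are named in each list of other muscle genes. Values of further members were added after they were seen.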

Additional observations from a re-analysis of the deposited data

How the results depend on the processing

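The number of members called lower was 14 with all libraries and edgeR (45.2%, against 21.7% of all tested genes). It was 6 of 16 when 1 CPM or more was required in 3 libraries (37.5%, against 22.2%). By limma-voom it was 2 (6.45%, against 21.5%). With 1 library left out it was between 4 and 17 (12.5% to 54.8%, where 15.4% to 21.6% of all tested genes were lower). Scaling to library size only, DESeq2, and the fits without control replicate 1 and without replicate 1 of both groups called 1 member higher in place of 0. In these fits 23% to 27.3% of all tested genes were called higher. The range with 1 library left out was 0 to 1 for members called higher, where 18.7% to 23.5% of all tested genes were. The median log2 fold change was -1.35, and -0.38 under the 1 CPM filter. Other muscle genes called lower numbered 17, and 10 with the Y-linked covariate.

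The replicate numbers gave no clear pairing of the libraries, and pairing was not tested. The correlations of same-numbered deviations were 0.081, 0.082 and 0.02, against -0.092 to 0.048 for unlike numbers. Of the 6 libraries, 5 correlated best with their own number, but not control replicate 3. With the replicate block 13 members were called lower (41.9%) and 0 higher, where 19.9% of all tested genes were lower and 22.4% higher. The block lost Myod1 (adjusted p = 0.16), Actc1 (0.101) and Chrna1 (0.116) by edgeR and gained Tnnc2 (0.019) and Actn2 (0.049).

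Members that did not pass turned round as follows. Without control replicate 1, values were 0.38 for Myl4, 0.28 for Tnnt2 and 0.21 for Casq2. Without mutant replicate 1 they were -0.06 for Mybpc1, -0.39 for Des and -0.42 for Cav3, and Des was -0.06 without control replicate 2. Without replicate 1 of both groups they were 0.65 for Myl4, -0.08 for Mybpc1, -0.32 for Des, 0.48 for Casq2 and -0.31 for Cav3. Limma-voom gave 0.05 for Tnnt2 and -0.06 for Des, and the replicate block -0.06 for Des. With the Y-linked covariate values were -0.03 for Myh7, -0.03 for Neb, -0.22 for Tnni2, -0.08 for Des, -0.76 for Cacna1s and -0.08 for Cav3. With 1 library left out, values ran from -0.69 to 0.38 for Myl4, -0.06 to 0.44 for Mybpc1, -0.96 to 0.28 for Tnnt2, -0.39 to 0.30 for Des, -1.45 to 0.21 for Casq2 and -0.42 to 0.46 for Cav3. The causes were not tested.

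Over all alternatives, the called members kept their call in 148 comparisons, lost it in 54 and turned direction in 0. Depth limits the lowest genes, since a floor of 3 counts is 0.0545 to 0.0558 CPM in a mutant and 0.0226 to 0.0371 CPM in a control.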
